A study of Mus musculus with 90 samples.

Results

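Gene expression in the CA1 field of the hippocampus was compared with that of the neocortex of the same mouse. The values came from areas of interest (AOIs) of brain sections, profiled on the GeoMx Digital Spatial Profiler with the mouse Whole Transcriptome Atlas, an assay in which probes hybridised to RNA are released by light from a chosen area and counted by sequencing. Every AOI labelled CA1 was taken, and set against the AOIs labelled motor cortex (MC) and somatosensory cortex (SS) of the same mouse and the same p16 label. This gave 53 of the 90 AOIs of the series, of which 18 were CA1, 18 MC and 17 SS; 3 of the 38 cortical AOIs had no CA1 partner and were not used. The AOIs came from 10 mice. Of these, 6 had undergone chronic social stress (abbreviated CSS, mice 1152, 1157, 1162, 1163, 1169 and 1170) and 4 were controls (1151, 1168, 1175 and 1182). All were of formalin-fixed, paraffin-embedded brain cut at 5 µm. The strain, sex and age of the mice, the way p16 high and p16 low areas were chosen (p16 is the cell cycle inhibitor encoded by Cdkn2a) and the cortical layers covered were not stated in the labels. Of the CA1 AOIs, 9 were p16 high and 9 p16 low; 8 mice had both labels, mouse 1169 had only p16 high and mouse 1170 only p16 low. The 2 labels were averaged, so that each mouse gave 1 CA1 level and 1 cortical level, and stressed and control mice were analysed together.

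CA1 is the output field of the hippocampal circuit. Its pyramidal neurons lie in a single dense sheet, receive the Schaffer collaterals of CA3, and are the textbook site of NMDA receptor-dependent long-term potentiation. The neocortex is layered: upper layers hold neurons that project within the cortex, layer 4 receives thalamic input in sensory areas, and layers 5 and 6 send axons out of the cortex. An AOI holds every cell type within its outline. Throughout, fewer cells of a type and less RNA per cell of that type cannot be told apart.

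Recovered probe counts ran from 243610 to 832054 per CA1 AOI (median 606625.5) and from 184469 to 2098984 per cortical AOI (median 770988), and were lower in CA1 in 9 of 10 mice (exact 2-sided sign-flip p = 0.043, and 0.059 on the log2 scale). The authors had scaled the signal of every AOI to one gene median, 22.07. Signal over background differed all the same. Relative to the negative control probe the gene median reached 1.70 ± 0.16 in CA1 and 1.37 ± 0.12 in cortex (mean ± SD, n = 10 mice), higher in CA1 in 10 of 10 (exact sign-flip p = 0.00195, the smallest possible), and the 90th percentile of signal was 94.4 ± 13.2 against 55.2 ± 7.05. Of all gene values, 23.9% did not exceed the negative probe. The single AOIs went with their labels: the summed signal of 10 CA1 pyramidal markers was higher in each of the 18 CA1 AOIs (1706 to 4298) than in any of the 35 cortical ones (350.2 to 698).

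CA1 and cortex differed in a large share of the genes measured. With limma and Benjamini-Hochberg adjustment over all 19962 genes, 9299 (46.6%) differed at an adjusted p under 0.05, of which 6787 (34%) were higher and 2512 (12.6%) lower in CA1. The difference had one sign in all 10 mice for 4845 of the genes that were higher and 562 of those that were lower. It reached 2-fold for 1144 and 77 genes and 8-fold for 18 and 2. The balance between higher and lower followed the level of the gene and the scaling. Among the 4991 genes in the lowest quartile of mean signal 20 were higher and 1194 lower. The counts were 128 and 815 in quartile 2, 2210 and 373 in quartile 3, and 4429 and 130 in the highest quartile. The part of the higher signal over background of CA1 in this pattern was not tested. Of the 9299 genes, 472 were called in the opposite direction by quantile normalization. Quantile normalization called 2891 genes higher and 2411 lower, scaling to the 75th percentile 3563 and 12346 (median of all genes −0.46 on the log2 scale, against −0.04 here), edgeR on the recovered counts 5751 and 8895 (median −0.21), and subtraction of the negative probe 8530 and 419 (median 0.58). Genes are therefore described mainly from the 1879 genes (9.41%) that were higher and the 416 (2.08%) that were lower under all 5 of these settings, called robust below; that count was added after the data were seen. Every gene given below as higher or lower is robust unless stated otherwise. Counts of list members are to be read beside the shares of all genes and the counts by signal quartile given above. Pairs of values give the mean signal of the 10 mice in CA1 against that in cortex, and the value with its SE the log2 difference, CA1 minus cortex.

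**Figure D1:**
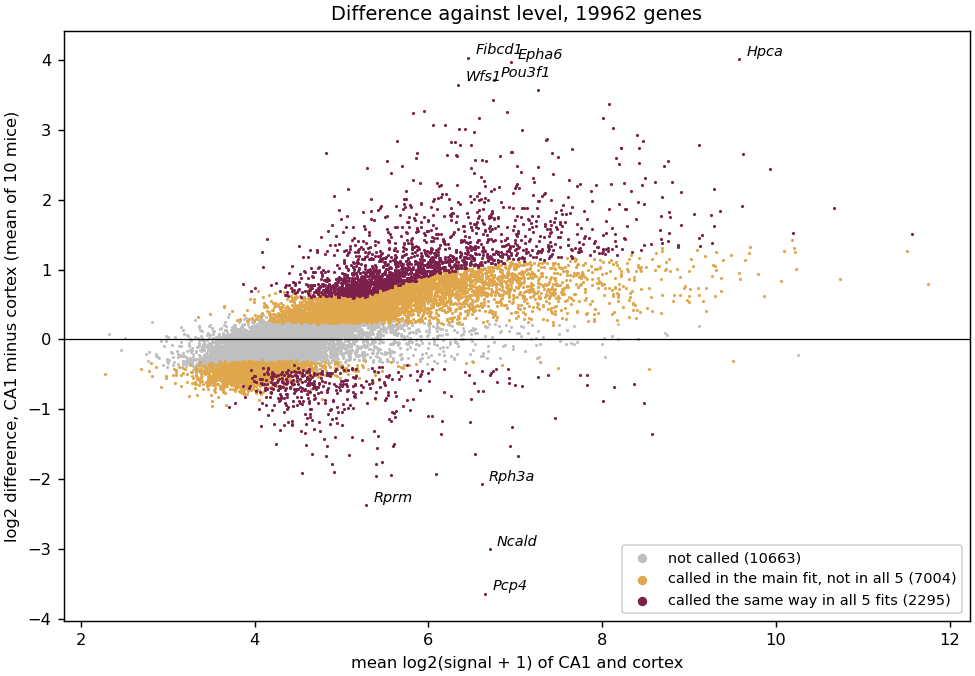
Log2 difference between CA1 and cortex (mean of 10 mice, vertical axis) against the mean log2(signal + 1) of both (horizontal axis) for 19962 genes. Of these, 2295 were called the same way in all 5 fits (dark), 7004 in the main fit but not in all 5 (orange) and 10663 were not called (grey); genes of high signal lie mostly above 0, and Pcp4 and Ncald stand lowest.

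The gene with the largest difference was Fibcd1, which encodes a membrane receptor for acetylated structures and is a known CA1 marker (chr2:31813290-31846964, mm10). Its signal ran from 215 to 529.8 in CA1 (median 330.5) and from 12.7 to 30.2 in cortex (median 21.7). No cortical value came near a CA1 value, and cortical signal averaged 1.31 times the negative probe. The log2 difference was 4.03 ± 0.15 (SE, n = 10 mice, adjusted p = 7.0e-16), or 16.3-fold. Hpca (hippocalcin, a calcium sensor of neurons, at chr4:129111570-129125919) ran from 2025 to 4231 in CA1 (median 3153) and from 132 to 263 in cortex (median 186), a log2 difference of 4.01 ± 0.10 (adjusted p = 5.3e-18). Unlike Fibcd1 it was well above the negative probe in cortex, at 12.1 times. Epha6, an ephrin receptor, ran from 299 to 655 in CA1 (median 495) and from 23.2 to 37.9 in cortex (median 30.0, log2 difference 3.97 ± 0.11). Pou3f1, a POU-domain transcription factor, ran from 266 to 468 (median 424) and from 20.5 to 41.4 (median 29.2, 3.71 ± 0.11), and Wfs1, the endoplasmic reticulum protein wolframin, from 199.8 to 414 (median 291) and from 14.3 to 28.1 (median 22.8, 3.65 ± 0.12).

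The other 10 of the 15 largest differences lay between 3.07 and 3.57. They were Wipf3, Cpne6, Gria1, Doc2b, Scn3b, Gm2115, Cacng8, Iqgap2, Rasd1 and Sertm1. Among them are the AMPA receptor subunit GluA1 (Gria1) and its auxiliary subunit TARP γ-8 (Cacng8), a calcium sensor of vesicle release (Doc2b), a sodium channel β subunit (Scn3b) and a calcium-dependent membrane-binding protein (Cpne6). In all 15 the CA1 levels of the 10 mice lay above all cortical levels; over all genes the levels of CA1 and cortex did not overlap in 2454 (12.3%).

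The largest difference in the other direction was that of Pcp4, which encodes a small regulator of calmodulin (chr16:96467606-96525793). Its signal ran from 13.8 to 39.7 in CA1 (median 29.3) and from 209.8 to 458 in cortex (median 391), without overlap. The log2 difference was −3.64 ± 0.13 (adjusted p = 2.1e-16), a 12.5-fold lower level. Ncald, whose product neurocalcin-δ belongs to the same family of calcium sensors as hippocalcin (chr15:37366175-37792519), ran from 19.7 to 55.7 in CA1 (median 36.8) and from 202 to 440.1 in cortex (median 292, −3.003 ± 0.14). So within one protein family Hpca and Ncald stood at opposite ends of the comparison. Rprm, a p53-induced cell cycle inhibitor used as a deep-layer cortical marker (chr2:54084093-54085552), ran from 11.0 to 22.9 in CA1 (median 16.1) and from 47.3 to 212 in cortex (median 89.0, −2.38 ± 0.21). Its cortical levels spread widely between mice and between areas of 1 mouse (24.1 in MC and 109 in SS of 1151, 185 and 59.9 of 1168). Only 8 of the CA1 AOIs lay below every cortical AOI, the lowest of which stood at 15.9. Rph3a, the Rab3 effector rabphilin, ran from 34.3 to 62.6 and from 128 to 291 (−2.07 ± 0.13). The remaining 11 of the 15 lay between −1.95 and −1.66: Grik3, Ipcef1, Spock1, Myl4, Atp2b4, Nxph3, Col6a1, Garnl3, Mobp, Cobl and Igsf21. Their CA1 means stood between 0.88 (Myl4) and 5.95 (Mobp) times the negative probe, so for most of them the size of the difference is limited by background in CA1.

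**Figure D2:**
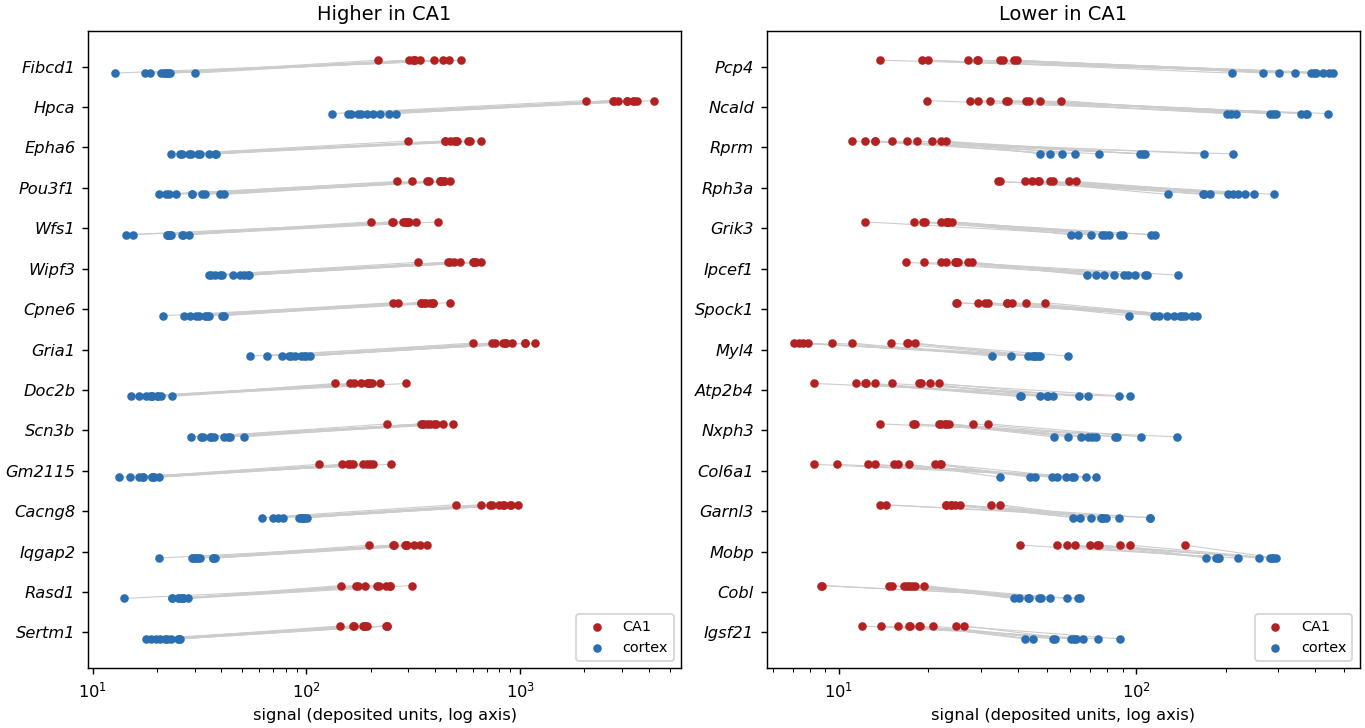
Signal in CA1 (red) and cortex (blue) of each of 10 mice, joined by a line per mouse, on a log axis, for the 15 genes with the highest and the 15 with the lowest log2 difference among genes called with one sign in all mice. In each of the 30 genes the CA1 and cortical points do not overlap; Hpca reaches 4231 in CA1, and Pcp4 falls to between 13.8 and 39.7.

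The promoters of the first 2 genes in each direction that the sequence table held are printed to show what letters precede the most opposed transcription starts. Each spans 250 bases before to 50 after the start, written from 5′ to 3′ on the gene's strand (RefSeq, GRCm38.p6, the mm10 build). They lie at chr2:31845956-31846255 (Fibcd1, minus strand), chr4:129121698-129121997 (Hpca, minus strand, the first of 3 starts listed), chr16:96467356-96467655 (Pcp4, plus strand) and chr2:54085503-54085802 (Rprm, minus strand). Capitals mark matches to a GC box, the site of SP and KLF factors.
Fibcd1: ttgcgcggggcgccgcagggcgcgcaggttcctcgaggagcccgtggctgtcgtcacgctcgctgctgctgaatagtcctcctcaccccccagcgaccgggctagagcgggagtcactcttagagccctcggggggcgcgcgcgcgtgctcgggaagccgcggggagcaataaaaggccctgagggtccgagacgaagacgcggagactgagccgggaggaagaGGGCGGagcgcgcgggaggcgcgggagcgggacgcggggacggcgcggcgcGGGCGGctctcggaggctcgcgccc
Hpca: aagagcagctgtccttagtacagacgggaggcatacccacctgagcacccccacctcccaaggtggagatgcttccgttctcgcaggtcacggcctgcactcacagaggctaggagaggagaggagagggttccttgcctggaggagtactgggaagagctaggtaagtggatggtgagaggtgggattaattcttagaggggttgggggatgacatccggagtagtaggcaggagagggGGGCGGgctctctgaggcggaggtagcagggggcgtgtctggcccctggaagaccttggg
Pcp4: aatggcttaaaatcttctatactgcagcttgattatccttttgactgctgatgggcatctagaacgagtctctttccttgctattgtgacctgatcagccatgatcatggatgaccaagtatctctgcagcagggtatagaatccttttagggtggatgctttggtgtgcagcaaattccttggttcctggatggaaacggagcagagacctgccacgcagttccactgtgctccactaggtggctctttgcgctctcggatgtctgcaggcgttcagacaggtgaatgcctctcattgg
Rprm: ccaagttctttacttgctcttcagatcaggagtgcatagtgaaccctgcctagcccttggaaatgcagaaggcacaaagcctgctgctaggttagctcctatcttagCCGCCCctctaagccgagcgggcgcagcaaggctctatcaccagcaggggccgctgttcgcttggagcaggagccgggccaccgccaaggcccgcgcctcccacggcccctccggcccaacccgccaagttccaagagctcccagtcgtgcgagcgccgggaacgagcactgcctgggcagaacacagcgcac
The GC box (GGGCGG on either strand) matched 2 times in Fibcd1, 1 time each in Hpca and Rprm, and not in Pcp4; 35.7% of the 32851 promoters in the table hold it. GC content was 74.3% in Fibcd1, 60.3% in Hpca, 63.3% in Rprm and 48.7% in Pcp4. None of the 4 windows held the POU octamer ATGCAAAT (in 1.74% of all promoters), the NeuroD-type E-box CAGATG (17.2%), the cyclic AMP response element TGACGTCA (1.79%) or the letters TATAAA (13.6%), each searched on both strands.

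Marker lists of CA1 and of cortical layers differed in how many members were higher or lower. Of 10 CA1 pyramidal markers 8 were higher in CA1, 7 of them robust, with a median log2 difference of 2.46. Beside those above, Itpka, an inositol trisphosphate kinase of dendritic spines, stood at 809 against 98.7 (3.03 ± 0.08), Man1a, a mannosidase of the Golgi, at 245.5 against 29.5 (3.01 ± 0.11), Ccn3, a secreted matrix protein, at 238 against 63.1 (1.90 ± 0.06) and Mpped1 at 331 against 104 (1.65 ± 0.06). Lefty1 was near background in both subregions and did not differ (0.00 ± 0.11, adjusted p = 0.98), and Dcn, which fibroblasts also express, was lower (−0.39 ± 0.14, not robust). Markers of neighbouring hippocampal fields were mostly not higher: 1 of 9 CA3 markers and 1 of 9 dentate granule cell markers were higher, and 3 and 4 lower. The 1 dentate marker was Calb1, the calcium buffer calbindin, at 83.2 in CA1 against 26.5 (1.53 ± 0.14). Prox1, the defining granule cell factor, stood at 17.5 against 22.8 (−0.41 ± 0.17, not robust).

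Layer 6 markers were the cortical list with the most members lower in CA1, 12 of 15 (10 robust, median −0.71). They included Rprm, Nxph3, a neurexin ligand (−1.78 ± 0.17), Syt6, a synaptotagmin (13.8 in CA1 against 42.1, −1.51 ± 0.17) and Tbr1, the transcription factor of corticothalamic neurons (28.5 against 83.6, −1.49 ± 0.17). Crym, a thyroid hormone-binding protein also on that list, went the other way at 340.5 against 80.7 (2.10 ± 0.10). Layer 5 markers divided: the transcription factors Bcl11b (144 against 34.5, 2.03 ± 0.08), Bcl6 (1.72 ± 0.09) and Etv1 (1.16 ± 0.10) and Parm1 (1.19 ± 0.10) were higher, whereas Rbp4, a retinol carrier (−1.23 ± 0.22), and Deptor, an mTOR inhibitor (−0.84 ± 0.16), were lower. Of 7 layer 4 markers none was higher and 4 were lower, 1 of them robust, Plcxd2 (−0.52 ± 0.14). Rorb, the nuclear receptor that defines layer 4, stood at 13.6 against 20.4, close to the negative probe in both (−0.62 ± 0.18, not robust). Upper layer markers gave 3 higher, Wfs1, Mdga1 (151 against 22.2, 2.67 ± 0.11) and Calb1, and no robust lower member of 12. Their lower members numbered 2 by quantile normalization, 8 by the 75th percentile, 7 by edgeR and 0 with the negative probe subtracted. Cux2, their defining factor, did not pass here (20.9 against 25.4, −0.29 ± 0.15). It was called lower by quantile normalization (−0.32), the 75th percentile (−0.71) and edgeR (−0.44), but not with the negative probe subtracted (−0.07).

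Transcription factors of forebrain patterning moved both ways, with 19 of 38 higher (12 robust) and 8 lower (4 robust). Higher were Neurod6, a bHLH factor of pyramidal neurons (451 against 60.6, 2.86 ± 0.08), Zeb2 (313 against 54.8, 2.48 ± 0.06) and Bcl11b. Zbtb20, the repressor known to set CA1 identity in the developing hippocampus, was named after its values were seen and stood at 113 against 24.8 (2.13 ± 0.09). Lower were Mef2c, an activity-regulated factor of cortical neurons (52.9 against 169.9, −1.64 ± 0.14), Tbr1, Id2 (33.2 against 73.1, −1.11 ± 0.16) and Satb1 (33.3 against 68.7, −1.04 ± 0.15).

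**Figure D3:**
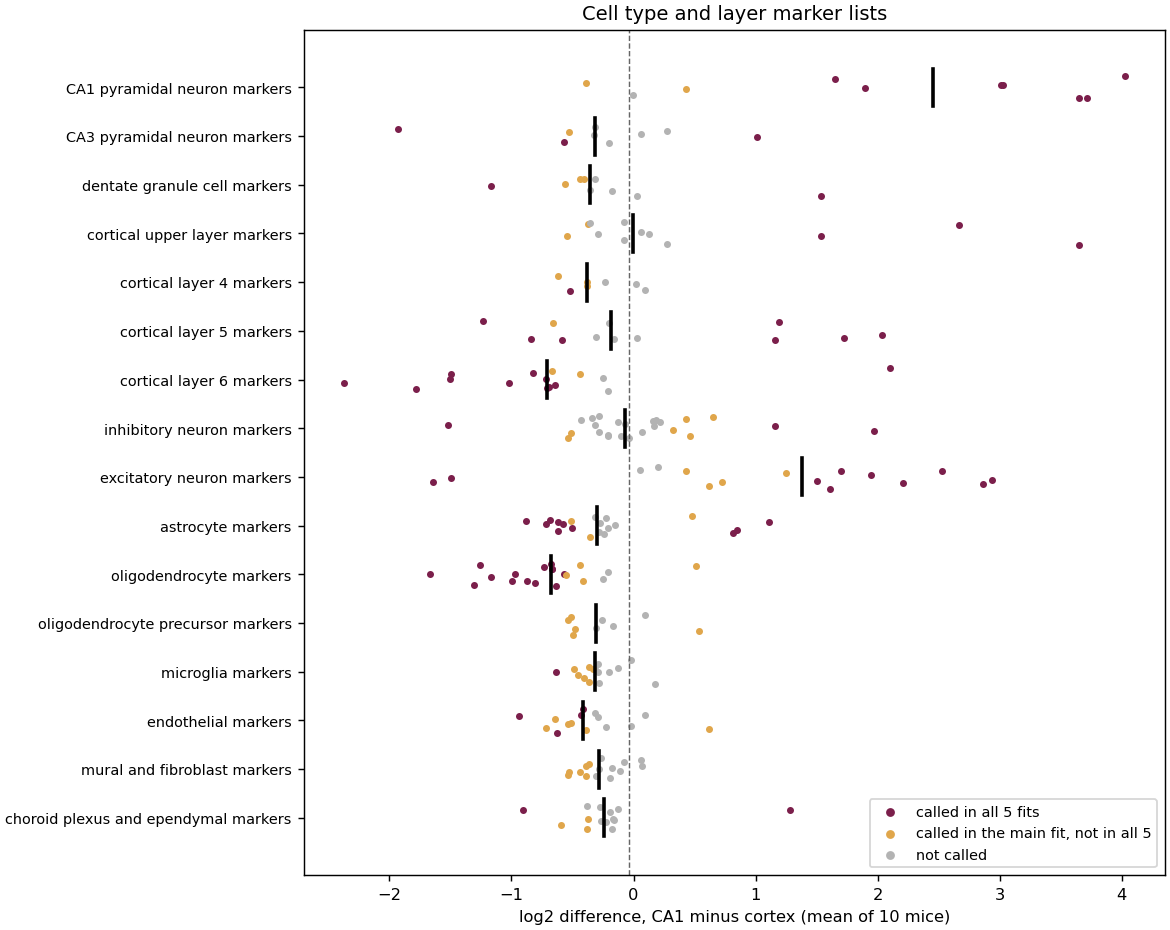
Log2 difference between CA1 and cortex (mean of 10 mice, horizontal axis) of each measured gene of 16 marker lists, with the list median as a black bar and the median of all genes as a dashed line at −0.04. Dark points are called in all 5 fits, orange in the main fit and grey not called; the CA1 markers (median 2.46) and excitatory neuron markers (1.38) lie to the right, the layer 6 (−0.71) and oligodendrocyte markers (−0.67) to the left.

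Of 27 AMPA, kainate and NMDA receptor genes and their auxiliary subunits, 14 were higher in CA1 (10 robust) and 8 lower (5 robust). Gria1 ran from 602 to 1175 in CA1 (median 857) and from 54.5 to 104 in cortex (median 86.8), 10.3-fold apart (3.37 ± 0.10). Gria2, the subunit that makes AMPA receptors calcium-impermeable, stood at 711 against 186 (1.94 ± 0.06). The auxiliary subunits Cacng8 (785 against 85.9, 3.17 ± 0.08) and Cnih2 (716 against 117, 2.60 ± 0.07), which govern surface expression and gating of AMPA receptors, were higher as well. So were the NMDA receptor subunits Grin2a (948 against 124, 2.93 ± 0.07) and Grin2b (839 against 146, 2.52 ± 0.06). The kainate receptor subunit Grik3 was the clearest exception: it ran from 12.3 to 24.0 in CA1 (median 22.5) and from 60.3 to 116 in cortex (median 79.5), with no overlap (−1.95 ± 0.13). Neto1, an auxiliary subunit of kainate receptors (34.7 against 60.1, −0.79 ± 0.15), Grik4 (14.99 against 23.0, −0.57 ± 0.16) and Shisa9, an AMPA receptor modulator (28.1 against 44.3, −0.65 ± 0.16), were lower too.

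Metabotropic glutamate receptors divided by class. Grm5, which couples to phospholipase C and is postsynaptic, was higher (188 against 45.9, 2.02 ± 0.08). The inhibitory receptors Grm8 (16.7 against 45.2, −1.42 ± 0.18), Grm3 (31.1 against 69.6, −1.13 ± 0.15) and Grm2 (14.9 against 27.7, −0.91 ± 0.19) were lower, whereas Grm7 of the same broad class was higher by 0.76 ± 0.09 but lost its call under quantile normalization. GABA-A receptor subunits were higher in 9 of 12 cases, 5 of them robust, where 34% of all genes were higher. All but 1 of the 12 were in signal quartiles 3 and 4, where 2210 of 4990 and 4429 of 4991 genes were higher. Gabra5, the α5 subunit of extrasynaptic receptors known for its hippocampal expression, ran from 216 to 413 in CA1 (median 322) and from 31.4 to 68.2 in cortex (median 45.7, 2.69 ± 0.07). Gabra2 (80.3 against 27.1, 1.51 ± 0.09) and Gabrb1, named after its values were seen (96.3 against 39.3, 1.27 ± 0.08), were higher as well. Gabra3 was the 1 subunit that was lower (38.7 against 55.7, −0.51 ± 0.13).

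The postsynaptic density was among the lists with most members higher: 28 of 29 were higher (17 robust) and 1 lower, with a median of 1.25. Of all genes 34% were higher, and of the 4991 genes in the highest quartile of mean signal 4429 were. Itpka, Cnksr2, a scaffold of Ras signalling (865 against 183, 2.25 ± 0.07), and the CaMKII β subunit Camk2b (767 against 166, 2.21 ± 0.06) led. Camk2a, the CaMKII α subunit, stood at 1007 against 420.3 (1.25 ± 0.06), but lost its call under quantile normalization. Dlg1, which encodes the scaffold SAP97, was the exception (50.8 against 70.8, −0.49 ± 0.13). Presynaptic genes gave a more divided picture, with 15 of 27 higher but only 2 robust, Doc2b (195 against 19.0, 3.27 ± 0.10) and the priming factor Unc13a (155 against 64.4, 1.25 ± 0.07), and 4 robustly lower. Those 4 were Rims3 (−1.19 ± 0.18), Doc2a (−0.69 ± 0.14), the SNARE protein syntaxin 1A, Stx1a (104 against 164, −0.65 ± 0.15), and the active zone protein Rims1 (−0.46 ± 0.13). Doc2a and Doc2b, close relatives, thus differed in opposite directions. The list median was 0.49 here and −0.43 under quantile normalization.

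Calcium-binding and calmodulin-regulated genes included Hpca, second to Fibcd1 among the higher genes, and Pcp4 and Ncald, the 2 lowest of all genes. Of 29, 18 were higher (13 robust) and 6 lower (5 robust). The catalytic subunit of calcineurin, Ppp3ca (1476 against 215.5, 2.79 ± 0.08), and Camkv, a kinase-like calmodulin-binding protein of spines (709 against 124, 2.51 ± 0.07), were higher. Rcan2, an inhibitor of calcineurin (38.6 against 79.0, −1.0045 ± 0.15), and Camk2g, the γ subunit of CaMKII (56.7 against 95.6, −0.76 ± 0.15), were lower.

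Potassium channel genes were higher in 24 of 42 cases (15 robust) and lower in 9 (6 robust). The β subunits Kcnab1 (387 against 47.2, 2.99 ± 0.08) and Kcnab2 (598 against 163, 1.87 ± 0.06), the A-type channel Kcnd2, known as Kv4.2 (149.7 against 30.8, 2.23 ± 0.08), and the G protein-gated channel Kcnj6, or GIRK2 (199.96 against 56.6, 1.80 ± 0.07), were higher. Kcnc4, or Kv3.4 (18.8 against 43.6, −1.21 ± 0.16), Kcnh1 (22.7 against 45.8, −1.0004 ± 0.17) and the sodium-activated channel Kcnt1 (46.2 against 76.6, −0.72 ± 0.15) were lower. Of 28 HCN, sodium and calcium channel genes 22 were higher (10 robust), where 34% of all genes were, and no lower member was robust. All but 2 of the 28 were in signal quartiles 3 and 4, where 2210 of 4990 and 4429 of 4991 genes were higher. Scn3b (376 against 38.2, 3.26 ± 0.09), Pex5l, or TRIP8b, the auxiliary subunit that traffics HCN channels to dendrites (673 against 145, 2.24 ± 0.08), the R-type calcium channel Cacna1e (371 against 96.9, 1.93 ± 0.06) and Cacna2d3 (127 against 33.0, 1.90 ± 0.07) led.

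**Figure D4:**
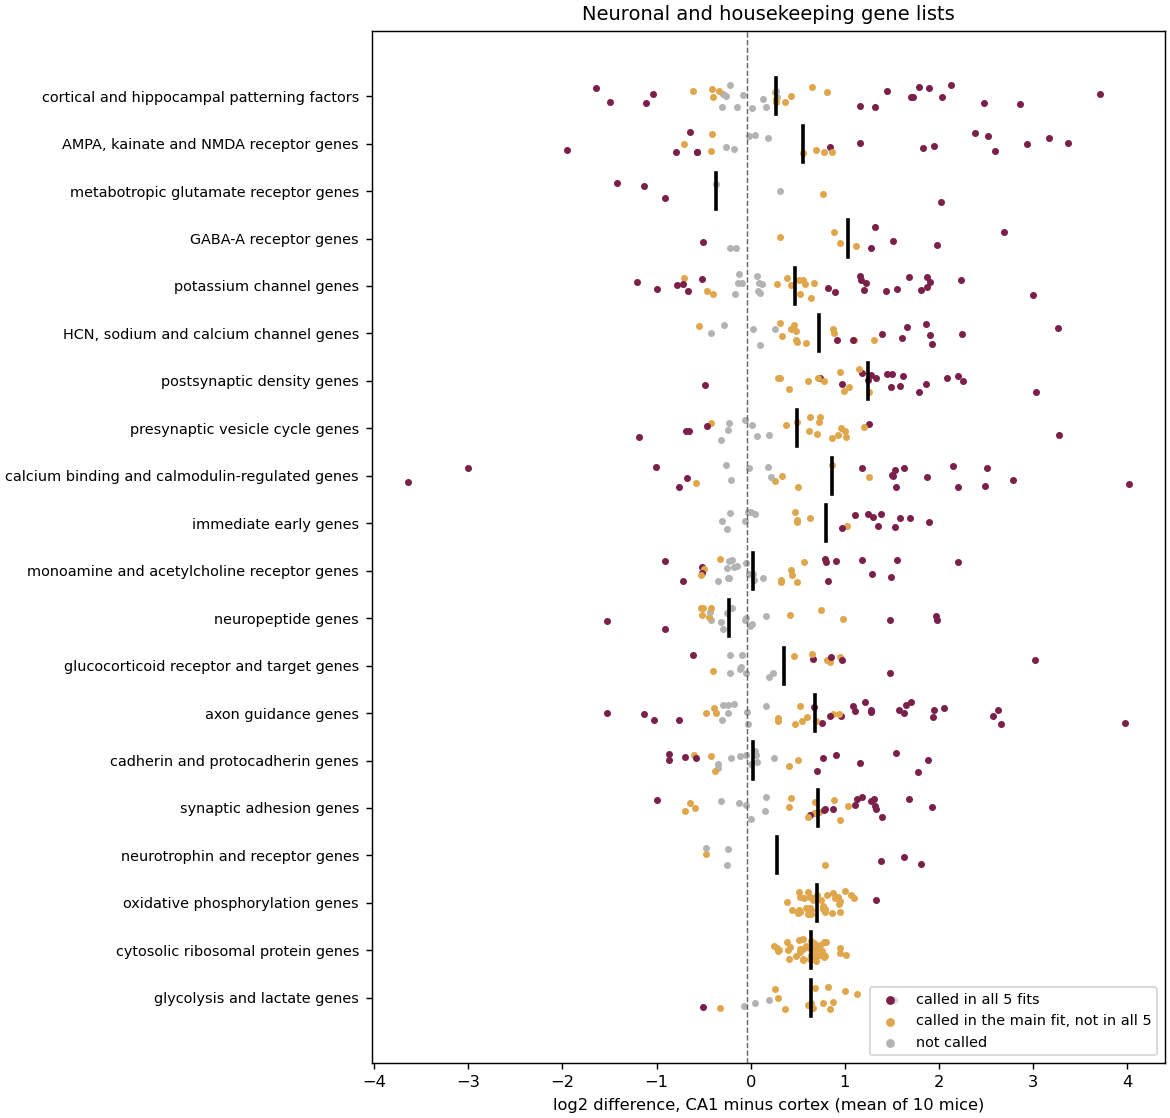
Log2 difference between CA1 and cortex (mean of 10 mice, horizontal axis) of each measured gene of 20 lists of neuronal and housekeeping genes, with list medians as black bars, the median of all genes as a dashed line at −0.04, and the colours of the marker list plot. Neuronal lists spread widely to both sides (calcium-binding genes from −3.64 to 4.01), whereas the oxidative phosphorylation (0.39 to 1.33) and ribosomal protein genes (0.25 to 1.01) form narrow bands that few robust calls reach.

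Activity-regulated and neuromodulator genes also differed. Of all genes 34% were higher under the deposited scaling, with 2210 of 4990 in signal quartile 3 and 4429 of 4991 in the highest quartile. All but 3 of 22 immediate early genes were in these quartiles. Whether that list stood apart from genes of like signal was not tested. Of its 22 members, 15 were higher (10 robust) and none lower under the deposited scaling. Quantile normalization gave 10 higher and 3 lower, the 75th percentile 12 and 7, edgeR 15 and 3, and subtraction of the negative probe 15 and 0. The nuclear receptors Nr4a3 (108 against 28.2, 1.90 ± 0.10) and Nr4a1 (186 against 61.1, 1.58 ± 0.08), the phosphatase Dusp6 (97.5 against 29.4, 1.69 ± 0.08), Junb (226 against 77.7, 1.53 ± 0.09) and Egr1 (269 against 109, 1.30 ± 0.08) were among the higher ones. Arc, named after its values were seen, stood at 252 against 119.6 (1.02 ± 0.09) and lost its call under quantile normalization. Monoamine and acetylcholine receptor genes gave 15 of 35 higher (9 robust) and 7 lower (4 robust). The muscarinic receptors Chrm1 (454 against 98.3, 2.20 ± 0.07) and Chrm3 (109 against 36.4, 1.55 ± 0.08), the α1D adrenoceptor Adra1d (66.9 against 23.2, 1.49 ± 0.08) and the serotonin receptor Htr1b (36.6 against 15.4, 1.18 ± 0.07) were higher. The serotonin 1A receptor Htr1a, named after its values were seen, stood at 39.6 against 15.2, with cortical signal at 0.93 times the negative probe (1.29 ± 0.14). The α1B adrenoceptor Adra1b (19.2 against 35.7, −0.91 ± 0.18) and the nicotinic subunit Chrna4 (25.9 against 43.0, −0.72 ± 0.15) were lower, so 2 adrenoceptors of one subfamily differed in opposite directions.

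Neuropeptide genes were higher in 6 of 24 cases (3 robust) and lower in 7 (2 robust). Cck, cholecystokinin, stood at 682 against 173.5 (1.97 ± 0.06), Penk, proenkephalin, at 169.9 against 40.2 (1.97 ± 0.14) and Scg2, secretogranin II, at 218 against 78.2 (1.48 ± 0.08). Sst, somatostatin, was lower (−1.52 ± 0.33), but its CA1 level ran from 13.8 to 222 between mice (median 74.2) against 145 to 301 in cortex (median 206), and it was lower in 8 of 10 mice only. Adcyap1, the peptide PACAP, was lower at 9.26 against 18.3 (−0.91 ± 0.17), at 0.71 times the negative probe in CA1.

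Stress hormones act on the hippocampus through 2 corticosteroid receptors, of which 1 was robustly higher in CA1. Nr3c2, the mineralocorticoid receptor, ran from 145 to 308 in CA1 (median 242) and from 23.7 to 36.6 in cortex (median 26.7), 8.10-fold apart (3.02 ± 0.10, adjusted p = 6.1e-17). Nr3c1, the glucocorticoid receptor, was named after its values were seen. It ran from 127 to 237 in CA1 (median 175) and from 70.9 to 112 in cortex (median 101, 0.84 ± 0.08), and turned to −0.09 under quantile normalization. Of 20 glucocorticoid receptor and target genes 10 were higher (5 robust) and 2 lower (1 robust). Zbtb16 (129 against 45.7, 1.48 ± 0.08) and Fkbp5, a receptor co-chaperone named after its values were seen (33.0 against 16.2, 0.97 ± 0.10), were higher. Per1 (0.95 ± 0.08) and Klf9 (0.80 ± 0.07) were higher without being robust, and Klf9 turned to −0.12 under quantile normalization. Cdkn1a, the cell cycle inhibitor p21, was lower (19.8 against 30.4, −0.62 ± 0.14). Of 8 neurotrophin and receptor genes 4 were higher (3 robust) and 1 lower (not robust). The receptor Ntrk3 (290.1 against 92.8, 1.63 ± 0.06), sortilin, Sort1 (351 against 100.1, 1.80 ± 0.07), and Bdnf (62.7 against 23.6, 1.38 ± 0.08) were higher, and Ntrk2 was higher by 0.79 ± 0.07 but at −0.21 under quantile normalization.

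Wiring molecules had members in both directions. Of all genes 34% were higher, with 2210 of 4990 in signal quartile 3 and 4429 of 4991 in the highest quartile. All but 6 of 44 axon guidance genes, 4 of 26 cadherins and protocadherins and 5 of 34 synaptic adhesion genes were in these quartiles. Whether any of these lists stood apart from genes of like signal was not tested. Axon guidance genes were higher in 29 of 44 cases (20 robust) and lower in 7 (4 robust). The ephrin receptors Epha6, Epha4 (437 against 69.2, 2.66 ± 0.07) and Epha7 (244 against 39.9, 2.57 ± 0.08) and the Robo ligand Slit3 (202 against 31.7, 2.63 ± 0.08) were higher. Ephb1 (19.6 against 43.3, −1.14 ± 0.16), the ephrin Efna5 (13.5 against 28.2, −1.03 ± 0.15) and the semaphorin Sema5a (16.2 against 48.8, −1.53 ± 0.17) were lower. Of 26 cadherins and protocadherins 9 were higher (7 robust) and 7 lower (4 robust). That share of higher members was near the 34% of all genes, but most members were in signal quartiles 3 and 4, where a larger share of genes was higher. Pcdh1 (262 against 70.6, 1.88 ± 0.06), Pcdh20 (95.6 against 26.8, 1.78 ± 0.09) and Pcdh19 (69.3 against 22.7, 1.54 ± 0.10) stood on one side, Pcdh7 (39.3 against 73.4, −0.87 ± 0.14) and Cdh9 (20.8 against 37.1, −0.87 ± 0.18) on the other. Synaptic adhesion genes were higher in 24 of 34 cases (15 robust), among them Lrrtm1 (109 against 27.6, 1.93 ± 0.09), Slitrk3 (1.68 ± 0.08) and Adgrl3 (1.39 ± 0.07). Lrrtm3, a relative of Lrrtm1, was the 1 robustly lower member (14.98 against 28.6, −0.9996 ± 0.21).

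Oligodendrocyte markers were largely lower in CA1. Of 20 oligodendrocyte markers 17 were lower (14 robust), and their summed signal ran from 507 to 921 in CA1 and from 1004 to 1449 in cortex, without overlap. The myelin genes Mobp (76.4 against 237, −1.67 ± 0.15), Cldn11 (26.2 against 66.0, −1.31 ± 0.16) and Cnp (47.7 against 108, −1.17 ± 0.16) were among them. Olig2, a factor also of precursors, was the 1 member that was higher (0.51 ± 0.12, not robust). Astrocyte markers leaned lower: 4 of 20 had a difference above 0, and the list median was −0.30. Quantile normalization called 14 lower and 4 higher, the 75th percentile 16 and 3, and edgeR 16 and 4. Subtraction of the negative probe called 7 lower and 4 higher. Slc1a2, the main glutamate transporter (194 against 354, −0.88 ± 0.15), glutamine synthetase, Glul (227 against 365.5, −0.69 ± 0.13), and Aldoc (−0.51 ± 0.13) were among 9 of 20 that were lower (7 robust), whereas Gfap (47.2 against 25.9, 0.85 ± 0.15), Cldn10 (0.82 ± 0.08) and Atp1b2, which neurons may also express (147 against 66.3, 1.11 ± 0.07), were robustly higher. Microglial markers were lower in 7 of 15 cases, but only Csf1r (24.8 against 37.1, −0.63 ± 0.18) robustly, and their summed signal overlapped (292 to 421 in CA1, 395 to 496 in cortex). The defining markers P2ry12 (24.2 against 28.0) and Tmem119 (13.3 against 11.9) did not pass here. P2ry12 was called lower by quantile normalization (−0.32), the 75th percentile (−0.63) and edgeR (−0.42), and Tmem119 higher by quantile normalization (0.35) and with the negative probe subtracted (0.62). The lower microglial markers numbered 9 of 15 by quantile normalization and 14 under both the 75th percentile and edgeR. Endothelial markers were lower in 9 of 15 cases (4 robust), with Slco1a4 (−0.94 ± 0.18) and Cldn5 (−0.42 ± 0.13) among the 4. Bsg, basigin, was higher here (0.62 ± 0.08), was at −0.39 under quantile normalization and lost its call under the 75th percentile. Mural and precursor markers had no robust member. Choroid plexus and ependymal markers had 1 robust member in each direction, Kl, klotho, which neurons also express (51.8 against 20.7, 1.28 ± 0.10), and Ttr (18.1 against 33.0, −0.91 ± 0.24); Folr1 was near the negative probe in both (12.9 and 15.1).

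Pan-inhibitory markers did not pass the test under the deposited scaling: Gad1 stood at 147 against 132 (0.18 ± 0.12), Gad2 at 57.6 against 65.7 (−0.28 ± 0.19) and Slc32a1, the vesicular GABA transporter, at 59.4 against 61.6 (−0.07 ± 0.15). These calls turned on the scaling and on single mice: without mouse 1182 Gad1 was called higher (0.30). Quantile normalization put Gad1 at −0.73, Gad2 at −0.92 and Slc32a1 at −0.71, all called lower, and Gad2 and Slc32a1 were also called lower under the 75th percentile and by edgeR. Of 25 inhibitory markers 6 were higher and 3 lower, against 3 and 11 by quantile normalization, 2 and 16 by the 75th percentile and 5 and 13 by edgeR. The robust ones were Cck, which CA1 pyramidal neurons may also express, Nos1 (57.5 against 24.7, 1.16 ± 0.13) and, lower, Sst. Of 16 excitatory neuron markers 12 were higher (8 robust, median 1.38) and 2 lower, Mef2c and Tbr1. Slc17a7, the vesicular glutamate transporter VGLUT1, was higher by 0.73 ± 0.08 here (676 against 410), and at −0.41 under quantile normalization.

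The direction of housekeeping genes turned with the scaling. All 37 oxidative phosphorylation genes (median 0.70) and all 42 ribosomal protein genes measured (median 0.64) were higher in CA1 under the deposited scaling, but 1 (Ndufa5, 1.33 ± 0.06) and 0 of them were robust, and their medians turned to −0.13 and −0.26 under quantile normalization. Gapdh stood at 1715 against 865, a difference of 1.005 ± 0.07 that was −0.29 under quantile normalization. In the glycolysis list the robust members were Pfkl, a phosphofructokinase (291 against 100.3, 1.52 ± 0.07), and Aldoc. The signal over background of the AOIs was higher in CA1 as well, and its part in these differences was not tested.

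Whether the contrast between CA1 and cortex depended on stress was tested as a difference between the 6 CSS and 4 control mice. No gene passed in limma (0%), with 801 at an unadjusted p under 0.05; edgeR on the recovered counts called 4, Cox8c, Mcemp1, Zfp819 and Spink12, with CA1 and cortical means between 16.01 and 29.2 and named after their values were seen. Nr3c2 differed between CA1 and cortex by 2.995 in CSS mice and 3.05 in controls, a difference of −0.06 ± 0.20. For Nr3c1 the values were 0.73 and 1.01 (−0.28 ± 0.15, adjusted p = 0.997), and for Fkbp5 1.17 and 0.68 (0.50 ± 0.17, unadjusted p = 0.0070, adjusted p = 0.997). The highest moderated t belonged to Sorcs2 (1.05 ± 0.29) and the lowest to Zfp422 (−0.71 ± 0.18), and neither passed (adjusted p = 0.997). The p16 label gave 0 calls as well (0%, 849 at an unadjusted p under 0.05, edgeR was not run for it). In the 8 mice with both labels Hpca differed by 3.98 among p16 high AOIs and 3.91 among p16 low ones, and Pcp4 by −3.55 and −3.51. Hbb-b1, a haemoglobin chain and so a sign of blood, had the lowest moderated t, with a difference of −1.39 ± 0.34 (adjusted p = 0.838).

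The 2 cortical areas were also compared with each other, which is the test of whether CA1 differed from one more than from the other. No gene passed (0%, 687 at an unadjusted p under 0.05), while edgeR called 12 and the random-block fit 1, Junb. MC and SS levels were 365 and 360.2 for Pcp4, 194 and 202 for Hpca, 88.6 and 84.5 for Gria1 and 28.2 and 28.6 for Nr3c2. Among the largest values that did not pass in limma were Epha7 at 47.8 in MC and 33.0 in SS (0.51 ± 0.17) and Egr1 at 92.3 and 131 (−0.51 ± 0.18); both are among the 12 that edgeR called, with Junb, Nr4a1 and Arc, also lower in MC.

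CA3 levels of the same mice show which differences CA1 shared with its neighbouring field. These values and the comparison above use the same CA1 AOIs and are given side by side only. The CA3 AOIs of 1175 were the lowest of the 10 mice for Hpca, Gria1, Nr3c2, Ncald and Pcp4 (64.5 against 143 to 569 for Pcp4). Those of 1163 were the highest for Fibcd1, Pou3f1 and Pcp4. Mouse 1175 was also the lowest in CA1 for Hpca (2025), Gria1 (602), Nr3c2 (145), Fibcd1 (215) and Pou3f1 (266), but not for Pcp4 or Ncald. Its gene median over the negative probe was the lowest of the 10 mice in both CA1 and cortex. Its recovered counts per AOI used were the highest (mean 1402015), so few counts were not the reason. The low scaled levels of 1175 were thus not confined to CA3, and they also enter the comparison with cortex. The genes whose call between CA3 and CA1 changed without 1175 are given at the end. Between CA3 and CA1, 2399 genes (12%) differed, 562 higher (2.82%) and 1837 lower (9.2%) in CA3; the split was 1063 and 1141 by quantile normalization and 1408 and 1072 by the 75th percentile. Genes at a like level in both fields and low in cortex were Hpca (3120 in CA1, 3149 in CA3, CA3 minus CA1 −0.04), Wipf3 (538 and 464, −0.33), Cpne6 (355 and 345, −0.09) and Neurod6 (451 and 441, −0.08); none of these 4 differed between the fields at the threshold. Intermediate in CA3 were Gria1 (432, −1.06), Grin2a (357, −1.42), Scn3b (110, −1.76) and Nr3c2 (157, −0.58). Near the cortical level in CA3 were Fibcd1 (26.0, −3.85), Pou3f1 (23.6, −4.24), Wfs1 (23.7, −3.62), Doc2b (23.6, −3.01) and Sertm1 (23.4, −3.03). The CA3 mean of Pou3f1 was raised by mouse 1163, whose 1 CA3 AOI stood at 85.8. In the other mice Pou3f1 ran from 11.0 to 23.1 in CA3. Ccn3 (20.2), Mpped1 (34.5) and Pex5l (82.3) lay below the cortical level in CA3, at −3.64, −3.28 and −3.07 from CA1.

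The genes lower in CA1 divided likewise. Grik3 (20.3 in CA3), Rprm (15.9), Ipcef1 (26.7), Myl4 (13.3), Nxph3 (16.9) and Mef2c (39.4) were low in both hippocampal fields, with CA3 minus CA1 between −0.45 and 0.17; of these 6 only Mef2c differed between the fields at the threshold (−0.43 ± 0.11). In Pcp4 (262 in CA3, 3.02 ± 0.26), Ncald (433, 3.40), Rph3a (391.6, 2.92) and Spock1, a proteoglycan and CA3 marker (337, 3.25), CA3 was far above CA1; without 1175 the differences of Pcp4 and Spock1 were 3.18 and 3.35. The chromogranin Chgb was higher in CA3 (1493) than in CA1 (449, 1.71), and in CA1 than in cortex (229, 0.98, not robust). Of the genes named here for their comparison with cortex, 6 differed between CA3 and CA1 with all mice but not without 1175. Without it CA3 minus CA1 was −0.40 for Gabra5, −0.34 for Kcnab2, −0.38 for Camk2b, −0.36 for Ndufa5, 0.45 for Stx1a and 0.50 for Gfap, at adjusted p from 0.0528 to 0.113 (limma).

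**Figure D5:**
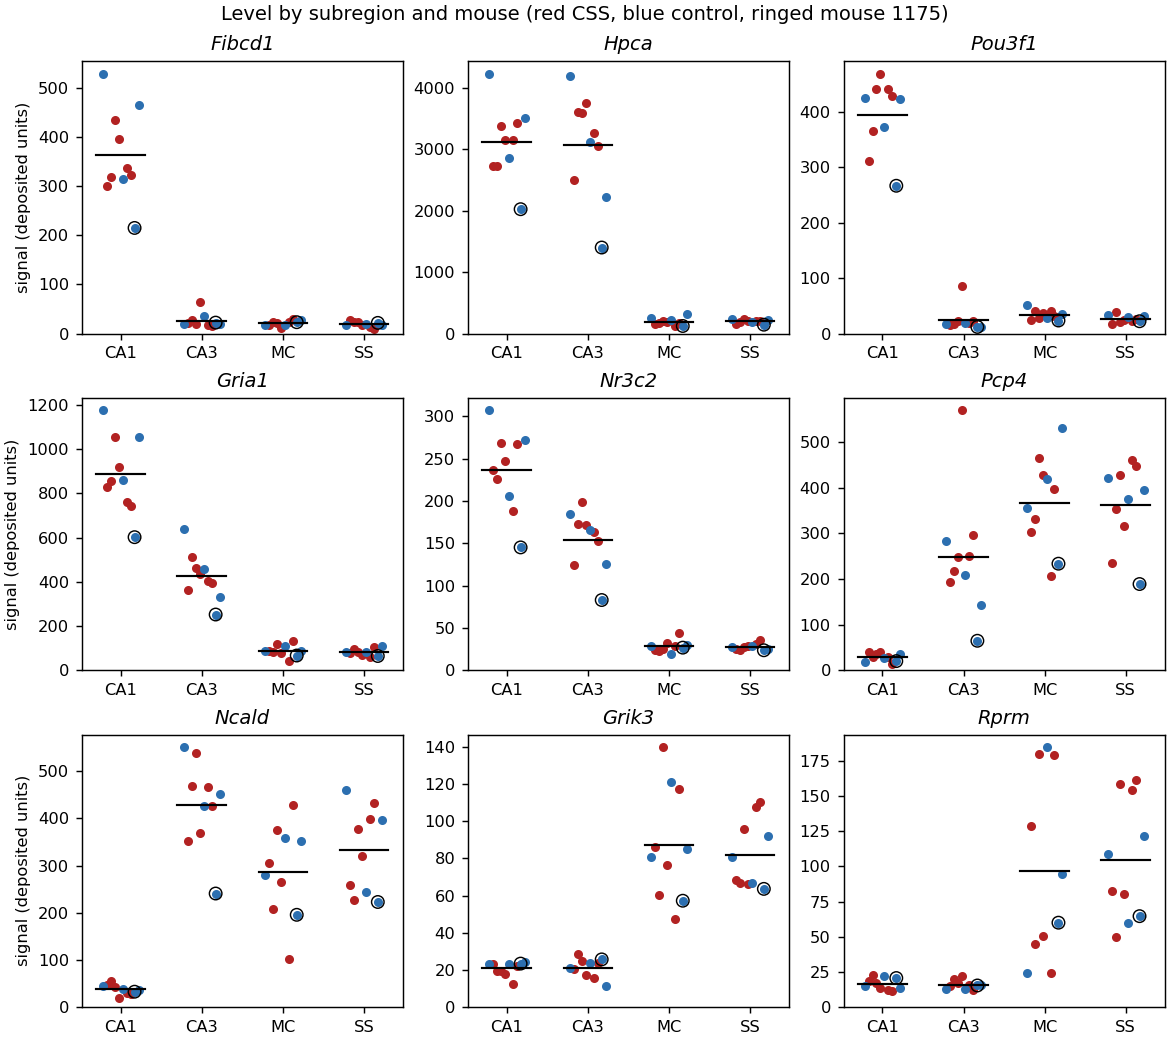
Signal (vertical axes, from 0) of 9 genes in CA1, CA3, MC and SS, 1 point per mouse (p16 labels averaged), CSS in red and control in blue, mouse 1175 ringed, with the mean of the mice as a bar. Hpca is high in both hippocampal fields, Fibcd1 and Pou3f1 in CA1 alone among the 4, Pcp4 and Ncald are low in CA1 alone, and Grik3 and Rprm are low in both hippocampal fields.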

How the data were processed

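The deposited values are a signal per gene and AOI that the authors scaled to an equal gene median, as the values show; the submitters' processing notes name the mm10 build, and no tool was named in the labels. Whole probe counts were recovered from the signal's steps (at least 99.98% of gene values within 0.01 of a whole number). The mouse was the replicate. Per mouse, log2(signal + 1) of CA1 minus the mean of MC and SS of the same p16 label was averaged over labels, so a fold change understates that of low genes; levels are back-transformed means. Pairing comes from the mouse number in the labels, and the within-mouse correlation in a random-block fit was 0.10. Differences were fitted over 19962 genes with limma 3.58.1 (lmFit, eBayes with a trend, R 4.3.3), 2-sided, with Benjamini-Hochberg adjustment, called under 0.05; every adjusted p is from this fit unless edgeR 4.0.16 (quasi-likelihood, recovered counts) is named. The script was tested on simulated data.

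Named were the 15 highest and 15 lowest differences among called genes with one sign in every mouse, up to 4 called members per direction of each of 36 lists, members of lists of 10 or fewer, and defining markers; some of these genes are not reported here. Without calls, the 3 highest and 3 lowest moderated t were available. The members, lists and rule were chosen with earlier results of these data known. Of the genes, 19822 matched RefSeq (GRCm38.p6). Whether p16 labels mark separate cells of a section is not given, and labels of a mouse were never counted as replicates.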

Additional observations from a re-analysis of the deposited data

Results flagged for a closer look

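In 17 of 167 genes checked, 1 mouse stood apart from the other 9 in its CA1 minus cortex log2 difference, by a gap past Dixon's 95% critical value, which chance exceeds in about 1 of 20 groups. Mouse 1169, whose CA1 was p16 high only, was the extreme in 7: higher in Slc17a7 (1.24), Camk2b (2.66), Camkv (2.87), Ppp3ca (3.38) and Sort1 (2.47), and lower in Lrrtm3 (−3.07) and Olig2 (−0.67, where the other mice were at 0.35 or above). Mouse 1170, whose CA1 was p16 low only, was the extreme in 5: Atp2b4 (−3.25), Nxph3 (−3.22), Man1a (4.01), Stx1a (−1.51) and Slc32a1 (−1.39). Both mice had 1 CA1 and 2 cortical AOIs in the comparison, fewer than any other mouse. Their differences over all genes also correlated least with the mean of the other mice (r = 0.69 for 1169 and 0.58 for 1170). The p16 label and the number of AOIs cannot be told apart in these mice. Mouse 1151 stood apart in Gm2115 (4.13) and Syt6 (−0.13, where the next was −1.29), mouse 1163 in Cdkn1a (−1.32) and mouse 1182 in Cdh9 (−2.21) and Gad1 (−0.87). Without the mouse concerned each of the 15 called genes among them kept its direction and an adjusted p under 0.05 (limma), the weakest being Cdkn1a (−0.54, adjusted p = 0.0026). Gad1, not called with all mice, was called higher without mouse 1182 (0.30, adjusted p = 0.0195), and Slc32a1 was at 0.07 without mouse 1170 (adjusted p = 0.585).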

How the results depend on the processing

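Of 9299 genes called, leaving out 1 mouse gave 8449 to 9512 (higher 6552 to 6886, lower 1859 to 2626), and the fit with no replicate block 9156, which changed the call of none of the 167 genes printed. Counts moved by over 1.5 times as follows. Quantile normalization gave 5302 (2891 higher), the 75th percentile 15909 (3563 higher, 12346 lower), edgeR 14646 (8895 lower) and the 5 shallower mice 5721. Of the 9299 genes, quantile normalization called 3703 in the same direction and 472 in the opposite one. The 75th percentile called 6075 and 12, edgeR 8250 and 0. Lower genes alone moved with genes above the median signal (811), the mouse as a random block (4724), the negative probe subtracted (419), SS alone as cortex (1419), p16 high AOIs (1432), p16 low AOIs (746), CSS mice (1175), control mice (458) and the 5 shallower mice (429). Smaller subsets have fewer mice; for the other settings the cause was not tested. The log2(signal + 10) scale, MC alone and the 5 deeper mice kept the 3 counts within 1.5 times. The stress, p16 and MC minus SS tests gave 0 under each limma setting except Junb under a random block (1 gene), and 0 to 0 without any mouse; edgeR gave 4 (stress) and 12 (MC minus SS). CA3 minus CA1 gave 1855 to 2623 without 1 mouse, 4221 by edgeR and 3644 with a random block. Under quantile normalization 7 printed genes turned: Slc17a7 (−0.41), Chgb (−0.032), Nr3c1 (−0.089), Klf9 (−0.12), Ntrk2 (−0.21), Bsg (−0.39) and Gapdh (−0.29). Counts of 6 to 82 per median gene limit genes near the negative probe.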
